A study of Mus musculus with 3 samples.

Results

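Interferon-stimulated genes are the genes that a cell switches on when an interferon reaches its surface, and 44 of them were followed in single cells sorted from injured and uninjured hearts of young mice. The 44 were chosen by name, as antiviral effectors, nucleic acid sensors and the factors that carry the signal. Earlier results of these data were known when they were chosen. All 44 were found among the 54752 gene symbols of each count table. The hearts came from C57BL/6 mice operated on at postnatal day 10 and collected 72 h later, at postnatal day 13. In the group P10-sham_vehicle the chest was opened without ligation and vehicle was given, in P10-MI_vehicle the left anterior descending artery was ligated to cause myocardial infarction (MI) and vehicle was given, and in P10-MI_SB225002 the ligated mice received SB225002 each day for 3 days. SB225002 is a small-molecule antagonist of CXCR2, the chemokine receptor through which neutrophils and some monocytes are drawn into tissue. Live cells carrying CD45 and F4/80, surface proteins of leukocytes and macrophages, were sorted from pooled infarct and border zones of several hearts, in buffers that held sodium butyrate, and each group was 1 library.

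With 1 library per group, the condition cannot be told apart from the library or the pool of hearts, so no test between groups was possible. Levels are given as UMIs (molecules counted through unique molecular identifiers) per 1000000 UMIs of the same cells (CPM), with exact Poisson 95% intervals, and differences as log2 ratios with exact conditional 95% intervals. These intervals cover counting error only. A gene was called past the limit at a log2 ratio of at least 0.5 in size, which is 1.41-fold, provided that both libraries together held at least 20 UMIs of it. The comparison of MI with sham and that of SB225002 with vehicle share the P10-MI_vehicle library.

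Type I interferons bind a receptor built of IFNAR1 and IFNAR2, whose kinases JAK1 and TYK2 pass the signal on by phosphorylation. The complex ISGF3, which holds STAT2 and IRF9, then binds interferon-stimulated response elements in promoters, while interferon-gamma acts mainly through gamma-activated sites. In infarcted hearts, monocytes and macrophages that meet nucleic acids of dying cells are known to run this programme.

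Promoters of 36 members had an entry in the RefSeq table of build GRCm38.p6, which holds 43 promoters for them, each from 250 bases before to 50 bases after the gene's start. Zbp1, Oas2, Ifi204, Parp14, Rtp4, Dhx58, Mx1 and Usp18 had none. The core of the response element, GAAA and GAAA parted by any 2 bases and searched on both strands, stood in 22 of the 43 promoters (51.2%), and in 1131 of all 32851 promoters in the table (3.44%). The gamma-activated site TTCNNNGAA, which reads the same on both strands, stood in 7 of the 43 (16.3%) and in 8.30% of all, and both motifs stood together in 4 of the 43 (9.30%) and in 0.454% of all. The 200 bases before the start are shown for 5 members whose levels carry the results, 5′ to 3′ on the gene's strand, with matches to the core in capitals. They lie at chr4:156200819-156201018 (minus strand) for Isg15, chr19:34583329-34583528 (plus) for Ifit3, chr19:34640689-34640888 (plus) for Ifit1, chr12:26456453-26456652 (minus) for Rsad2 and chr11:83174986-83175185 (plus) for Slfn4.
Isg15: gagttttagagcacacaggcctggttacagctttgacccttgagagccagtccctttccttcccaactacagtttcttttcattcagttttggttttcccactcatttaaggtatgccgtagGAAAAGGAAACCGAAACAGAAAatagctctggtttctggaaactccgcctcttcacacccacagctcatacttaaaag
Ifit3: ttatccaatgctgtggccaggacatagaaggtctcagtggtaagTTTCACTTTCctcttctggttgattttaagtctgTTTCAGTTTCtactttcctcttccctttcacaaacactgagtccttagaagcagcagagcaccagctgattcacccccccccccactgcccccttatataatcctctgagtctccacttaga
Ifit1: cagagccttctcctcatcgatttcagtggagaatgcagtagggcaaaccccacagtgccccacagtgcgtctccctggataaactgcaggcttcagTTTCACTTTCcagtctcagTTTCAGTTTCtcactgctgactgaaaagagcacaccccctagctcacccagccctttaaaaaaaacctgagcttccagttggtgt
Rsad2: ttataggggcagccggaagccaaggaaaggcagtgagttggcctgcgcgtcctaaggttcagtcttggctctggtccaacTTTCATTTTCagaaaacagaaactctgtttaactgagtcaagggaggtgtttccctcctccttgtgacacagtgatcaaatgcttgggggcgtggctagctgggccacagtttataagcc
Slfn4: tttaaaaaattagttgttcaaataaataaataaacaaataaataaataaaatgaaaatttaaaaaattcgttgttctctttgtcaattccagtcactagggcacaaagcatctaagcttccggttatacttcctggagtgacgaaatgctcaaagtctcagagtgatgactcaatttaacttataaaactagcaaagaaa
In Isg15 3 overlapping matches ran together from 78 to 57 bases before the start. Ifit3 held 2 separate matches, at 156 to 147 and 122 to 113 bases before the start, Ifit1 held 2, at 104 to 95 and 85 to 76, and Rsad2 held 1, at 120 to 111. Slfn4 held none in this stretch, which says only that these letters were absent from it. A match describes the letters and is not a measured binding site.

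The tables held 3390 barcodes in the sham, 4511 in the MI vehicle and 5783 in the MI SB225002 library, of which 2352, 3454 and 4744 had 500 to 30000 UMIs, 500 to 5000 genes and a mitochondrial share under 10%. Median UMIs per cell were 8520, 6400 and 5654, and the median mitochondrial share was 5.03%, 4.36% and 3.45%, so both were highest in the sham and lowest in the SB225002 library. Between 786 and 1356 barcodes occurred in both members of a pair of libraries, and the median r of cells under a shared barcode (0.530, 0.489 and 0.510 over the 3 pairs of libraries) was slightly above that of cells under different ones (0.529, 0.484 and 0.508). The sorted cells were labelled macrophages and monocytes, and gates on fixed marker genes placed 2071, 2467 and 3349 cells in a C1q+ macrophage gate, led by Mrc1, C1qa, Fcna, Fcrls and C1qc. A Ly6c-high monocyte gate was led by Prtn3, Ly6c2, Gm9733, I830127L07Rik and Spint1, with its markers Plac8, Vcan and Ccr2 further down. This gate held 17, 213 and 288 cells. The rest were fibroblasts (78, 213 and 164 cells), endothelial cells (46, 64 and 201), neutrophils (35, 96 and 155), B cells (31, 70 and 50) and smaller gates, so the label did not cover every cell.

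Summed over all cells, the 44 members stood at 2216 CPM in the sham, 2517 CPM in the MI vehicle and 3253 CPM in the MI SB225002 library. The log2 ratio was 0.18 (interval 0.17 to 0.20) for MI over sham and 0.37 (0.36 to 0.38) for SB225002 over vehicle. Ifitm3, a membrane protein that blocks the fusion of viruses with endosomes, gave 21.3%, 28.1% and 32.1% of all member UMIs in macrophages and 63.7%, 55.9% and 47.7% in monocytes. Without Ifitm3 the all-cell ratio for MI over sham was -0.04, that is, turned in direction, and the ratio for SB225002 over vehicle was 0.35. The sums are therefore given below for the 44 members and, in most cell-type gates, also for the 43 without Ifitm3.

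**Figure D1:**
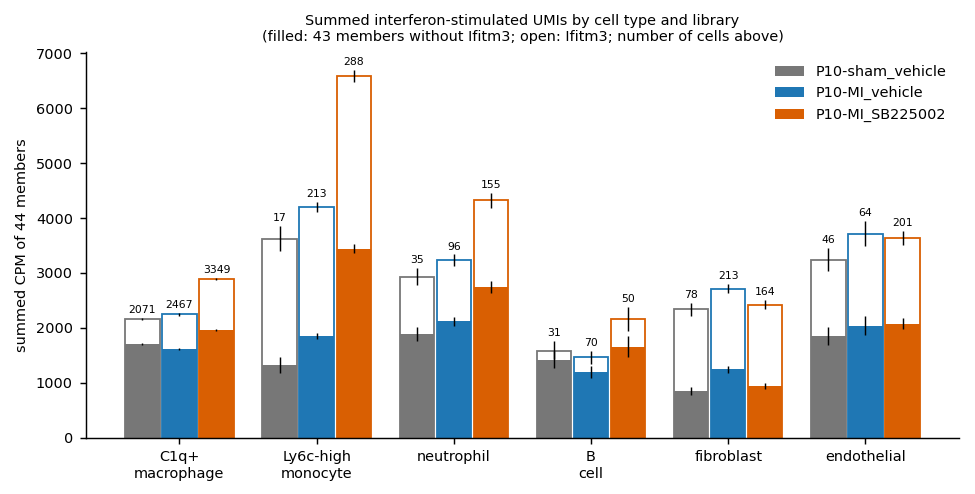
Summed member level in CPM (vertical axis, linear) for 6 gated cell types in the sham, MI vehicle and MI SB225002 libraries, with filled bars for the 43 members without Ifitm3, open bars for Ifitm3, and the number of cells above each bar. Each bar is 1 library and the lines are Poisson 95% intervals of the 43-member and 44-member sums. Monocytes reached the highest bar, 6583 CPM in the SB225002 library.

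In C1q+ macrophages the members did not move together between sham and MI. Their sum was 2161 CPM in the sham and 2246 CPM in the MI vehicle library, a log2 ratio of 0.06 (0.04 to 0.08), and without Ifitm3 it went the other way, from 1700 to 1615 CPM (-0.07). Of 43 members with enough UMIs, 8 were higher past the limit, against 9.72% of the 14208 genes tested, and 2 were lower, against 6.63%. The median member ratio was 0.02 and the median over all genes tested was -0.05. The share of members higher in MI was 18.6%, and 6 members were higher and 4 lower of 42 once the 1% of cells with the highest member share were left out of each library. Thinned to 1000 UMIs a cell, so that each cell weighed the same, 3 were higher and 5 lower. The share of all genes past the limit was not taken at that depth.

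The 8 that were higher were Ifit2, Oas3, Rsad2, Cmpk2, Isg20, Gbp2, Slfn1 and Slfn4. Slfn4, a Schlafen protein of myeloid cells, stood at 6.96 CPM in sham and 14.3 in MI (log2 ratio 1.04, 0.74 to 1.36), and Slfn1, its growth-regulating relative, at 4.049 and 8.08 (0.997, 0.59 to 1.41). Oas3, an oligoadenylate synthetase that activates RNase L, went from 2.54 to 5.26 CPM (1.05), and Gbp2, a guanylate-binding GTPase that attacks the membranes around intracellular microbes, from 3.63 to 7.14 (0.97). Ifit2, which binds foreign RNA, went from 5.92 to 10.02 CPM (0.76, 0.41 to 1.11), and Rsad2, the radical-SAM enzyme viperin, from 8.36 to 13.3 (0.67, 0.37 to 0.97). For Rsad2, 24 of 161 UMIs in sham and 65 of 240 in MI came from 1 cell each. It was seen in 3.62% of sham and 3.61% of MI macrophages, so its higher level did not come with more positive cells. The 8 were all genes of low count, and members with more UMIs lay closer to 0 or below it.

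The 2 lower members were Oas1g, a further oligoadenylate synthetase, at 9.81 CPM in sham and 5.92 in MI (-0.73, -1.08 to -0.38), and Cxcl9, a chemokine for activated T cells. All 34 Cxcl9 UMIs of the sham macrophages came from 1 cell, with 2 UMIs in MI and 10 in SB225002. Isg15, a ubiquitin-like modifier of other proteins, stood at 34.7 CPM in sham and 24.6 in MI (-0.497, -0.67 to -0.32), just inside the limit. By role, the sum of the viperin group (Rsad2, its locus neighbour Cmpk2 and the exonuclease gene Isg20) differed by 0.64 and that of the 4 IFIT genes by 0.36, while the oligoadenylate synthetases differed by -0.34, the ISG15 system by -0.23 and the chemokines by -0.49.

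SB225002 and vehicle differed more, and mainly in one direction. In macrophages the 44-member sum was 2246 CPM with vehicle and 2888 with SB225002, a log2 ratio of 0.36 (0.35 to 0.38), and the 43-member sum was 1615 and 1960 CPM (0.28). Of 43 members tested, 24 were higher past the limit, against 8.53% of 14337 genes, and 0 were lower, against 13.4%. The median member ratio was 0.52 against -0.06 over all genes tested, 33 members lay above 0 and 10 below. Leaving out the 1% of cells with the highest member share gave 25 higher and 0 lower of 42.

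**Figure D2:**
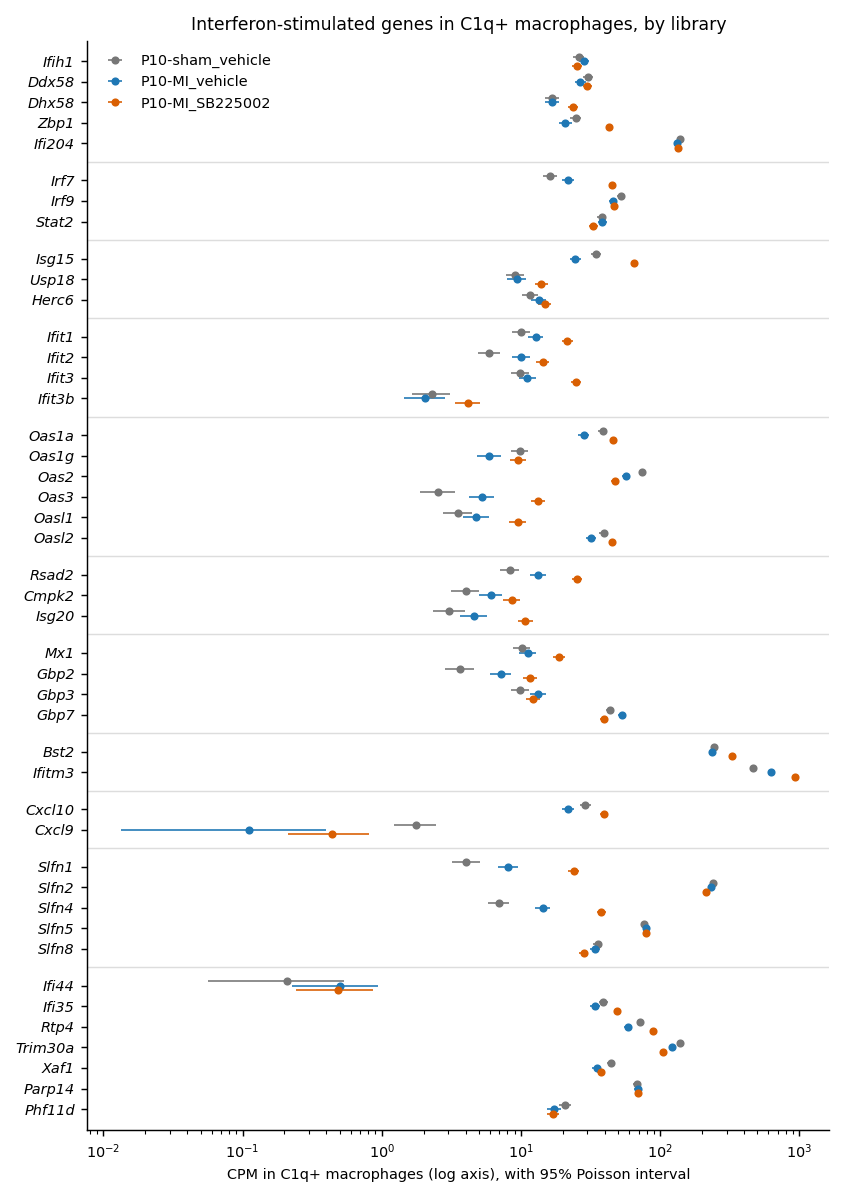
Level of each member in C1q+ macrophages in CPM (log axis), grouped by role, with 1 point per library (sham, MI vehicle, MI SB225002) and its Poisson 95% interval. The SB225002 point stands clear above the other 2 for Isg15 (65.2 CPM), Irf7, Zbp1, Ifit3, Slfn1 and Slfn4, and overlaps or lies below them for Slfn2, Slfn5, Parp14 and Irf9.

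The ISG15 system stood at 55.3, 47.3 and 94.0 CPM in the sham, MI vehicle and MI SB225002 macrophages. Isg15 gave 668, 444 and 1484 UMIs, or 34.7, 24.6 and 65.2 CPM, a log2 ratio of 1.41 (1.25 to 1.56) for SB225002 over vehicle. The SB225002 library was the highest and the MI vehicle library the lowest of the 3, with intervals that did not overlap. Usp18, the protease that removes ISG15 and dampens the receptor, stood at 9.03, 9.30 and 14.0 CPM (0.59, 0.32 to 0.87). Herc6, the mouse ligase that attaches ISG15, stood at 11.6, 13.4 and 14.8 CPM and was not past the limit (0.15, -0.10 to 0.39).

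The IFIT proteins bind RNA with foreign ends, and their genes lie side by side on chromosome 19. Ifit3 stood at 9.86, 11.1 and 24.95 CPM in the 3 libraries, so sham and MI vehicle lay together and SB225002 above them (1.17, 0.93 to 1.40). Its near copy Ifit3b, which may share reads with it, stood at 2.28, 2.05 and 4.17 CPM (1.03, 0.47 to 1.62). Ifit1 stood at 10.02, 12.7 and 21.5 CPM (0.76, 0.53 to 0.99) and Ifit2 at 5.92, 10.02 and 14.4 (0.52, 0.25 to 0.79). All 4 were past the limit, and Ifit2 alone of them was past it in MI over sham too. The promoters of Ifit3 and Ifit1 shown above each carry a pair of core matches, and that of Slfn4, with none, belongs to a gene that was higher by 1.40.

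In the viperin group, Rsad2 gave 161, 240 and 574 UMIs, or 8.36, 13.3 and 25.2 CPM (0.93 for SB225002 over vehicle, 0.70 to 1.15). Isg20, an exonuclease that degrades RNA, stood at 3.06, 4.59 and 10.8 CPM (1.23, 0.86 to 1.61). Cmpk2, a mitochondrial nucleotide kinase, stood at 3.997, 6.09 and 8.57 CPM and stayed inside the limit (0.49, 0.15 to 0.84). Each of the 3 was lowest in sham and highest in SB225002. For Rsad2, 24 of the 161, 65 of the 240 and 55 of the 574 UMIs each came from 1 cell.

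Sensors and transcription factors were divided. Zbp1, a sensor of left-handed nucleic acid that can start necroptosis, stood at 24.8, 20.9 and 43.2 CPM (1.05, 0.88 to 1.22), and Irf7, the factor that amplifies interferon transcription, at 16.1, 21.8 and 45.4 (1.06, 0.89 to 1.23). Dhx58, the regulatory helicase LGP2, stood at 16.8, 16.7 and 23.8 CPM (0.51, 0.31 to 0.72). The RNA helicases Ifih1 (26.0, 28.4 and 25.4 CPM) and Ddx58 (30.3, 26.7 and 29.9), which encode MDA5 and RIG-I, were not past the limit in either comparison. Nor were the ISGF3 subunits Irf9 (52.2, 45.6 and 46.9 CPM) and Stat2 (37.9, 38.4 and 33.1), or the DNA sensor Ifi204 (138, 133 and 135). The sensor and factor groups, summed, differed by 0.19 and 0.25.

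Among the oligoadenylate synthetases, which make the messenger that activates RNase L, Oas3 stood at 2.54, 5.26 and 13.3 CPM (1.34 for SB225002 over vehicle, 1.003 to 1.69) and Oas1a at 38.6, 28.2 and 46.1 (0.71, 0.55 to 0.86). Oas1g, which may share reads with Oas1a, stood at 9.81, 5.92 and 9.53 CPM (0.69), so SB225002 lay near the sham value. The relatives Oasl1 (3.53, 4.76 and 9.49 CPM, ratio 0.9954) and Oasl2 (39.4, 32.0 and 45.4, ratio 0.50) were past the limit too, Oasl2 only just. Oas2 ran the other way, at 74.6, 56.7 and 47.2 CPM (-0.26, -0.39 to -0.14), without passing it.

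Ifitm3 stood at 461, 630 and 928 CPM (0.56, 0.53 to 0.59), and Bst2, the tetherin that holds budding virus at the membrane, at 245, 234 and 330 CPM (0.498, 0.44 to 0.55), just inside the limit. Among GTPases, Mx1, which traps viral nucleocapsids, stood at 10.1, 11.2 and 18.8 CPM (0.75, 0.51 to 0.999) and Gbp2 at 3.63, 7.14 and 11.6 (0.71, 0.40 to 1.02). The other guanylate-binding members were not past the limit, with Gbp3 at 9.86, 13.2 and 12.3 CPM and Gbp7 at 43.8, 53.1 and 39.5 (-0.43, -0.56 to -0.30). Gbp7 was the lowest of all 43 ratios. The chemokine Cxcl10, which draws CXCR3+ T and NK cells, stood at 29.1, 21.9 and 39.3 CPM (0.85, 0.67 to 1.02), with 134 of the SB225002 UMIs in 1 cell.

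The Schlafen family was split. Slfn1 stood at 4.049, 8.08 and 23.9 CPM (1.56, 1.30 to 1.84), the largest ratio of the 43, and Slfn4 at 6.96, 14.3 and 37.9 (1.40, 1.20 to 1.61). Both were lowest in sham and past the limit in both comparisons. Slfn2, which keeps T cells and monocytes quiescent, stood at 241, 231 and 215 CPM, Slfn5 at 77.04, 78.7 and 79.1 and Slfn8 at 35.7, 34.2 and 28.3, with ratios of -0.11, 0.01 and -0.27. The family's sum therefore differed by only 0.07.

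Of the remaining members, Ifi35, a partner of NMI that can be released as a danger signal, stood at 38.99, 33.9 and 49.2 CPM (0.54, 0.39 to 0.68), and Rtp4, a receptor transporter that also limits flaviviruses, at 72.1, 58.4 and 88.5 (0.60, 0.49 to 0.71). Trim30a, an inhibitor of NF-kappaB signalling, stood at 139, 123 and 105 CPM (-0.22), and the apoptosis adaptor Xaf1 at 44.6, 35.0 and 37.5 (0.10). Parp14, an ADP-ribosyltransferase, stood at 67.9, 69.0 and 69.1 CPM and Phf11d, a zinc-finger protein, at 20.6, 17.3 and 17.1, with ratios of 0.00 and -0.02. Ifi44 gave 4, 9 and 11 UMIs, too few for a ratio of MI over sham.

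**Figure D3:**
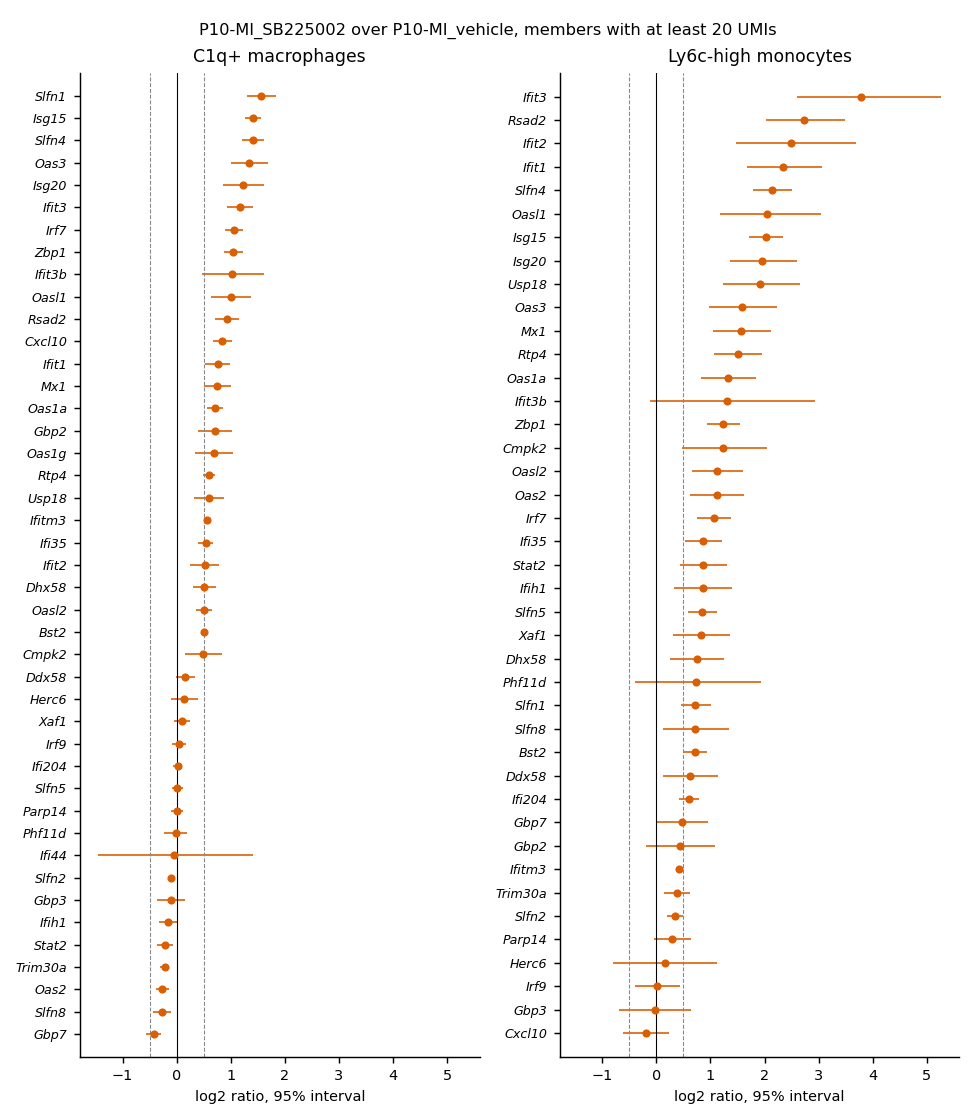
Log2 ratio of SB225002 over vehicle (horizontal axis) for each member in C1q+ macrophages and in Ly6c-high monocytes, with the exact 95% interval and dashed lines at -0.5 and 0.5. Genes are sorted by ratio in each panel. The points reach 1.56 (Slfn1) in macrophages and 3.78 (Ifit3) in monocytes, and Cxcl10 lies on opposite sides of 0 (0.85 and -0.19).

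For Isg15, Irf7, Slfn4 and Ifitm3, shares of cells with SB225002 and with vehicle pointed the same way as the levels, but this was not so for every member. After each cell was thinned to 1000 UMIs, Isg15 was seen in 3.13%, 2.11% and 5.32% of the sham, MI vehicle and MI SB225002 cells (365, 214 and 648 cells before thinning), Irf7 in 2.06%, 1.99% and 3.64%, and Slfn4 in 0.54%, 1.04% and 2.57%. Ifitm3 was seen in 32.2%, 35.9% and 46.1%. Ddx58 was seen in 3.36% of cells with vehicle and 3.00% with SB225002, and Irf9 in 4.85% and 4.16%, though their log2 ratios were 0.16 and 0.04. No count over all members was made. No gated type is known to lack these genes, so no share of background from free RNA could be set beside them. Immediate-early genes, which respond to handling, stood at 3542 CPM in sham, 3518 with vehicle and 2080 with SB225002, markers of Gpnmb+Spp1+ macrophages went from 3151 to 10509 CPM and neutrophil markers from 3479 to 5927. The part of each in the member ratios was not tested.

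Ly6c-high monocytes, blood-derived cells that enter an infarct, showed the widest difference in the 44-member sum among the gates with at least 50 cells in both libraries. With vehicle their 213 cells held 4199 CPM of the 44 members and with SB225002 their 288 cells held 6583, a log2 ratio of 0.65 (0.61 to 0.69). Without Ifitm3 the sums were 1851 and 3441 CPM (0.89), and without the 5 members with the most UMIs the ratio was 1.13. Past the limit were 31 of 41 members in the higher direction, against 12.2% of 9455 genes, and 0 in the lower, against 14.2%. The median member ratio was 0.86 and that over all genes 0.01. Thinned to 1000 UMIs a cell, which left fewer molecules, 13 members were higher and 1 lower, and the 44-member ratio was 0.47. The number of members tested and the share of all genes past the limit were not taken at that depth. The thinned counts therefore have no background beside them. The sham gate held 17 cells, at 3625 CPM, and gives no ratio.

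The IFIT genes, whose sum differed most of the 11 roles, had few UMIs in vehicle monocytes. Ifit3 gave 6 UMIs with vehicle and 95 with SB225002, or 3.11 and 42.8 CPM, which is 13.8-fold (log2 3.78, 2.61 to 5.26), and 29 of the 95 came from 1 cell. Ifit1 gave 22 and 128 UMIs, 5.06-fold (2.34, 1.68 to 3.06), and Ifit2 gave 9 and 58, 5.60-fold (2.49, 1.46 to 3.68). Ifit3b gave 6 and 17, with an interval that includes 0 (1.30, -0.11 to 2.93). Rsad2 gave 19 and 144 UMIs (2.72, 2.02 to 3.49), but 17 of the 19 and 75 of the 144 each came from 1 cell. In the sham monocytes Ifit1, Ifit2, Ifit3 and Rsad2 all had 0 UMIs.

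Other members past the limit differed by less. Slfn4 gave 80 and 405 UMIs, or 41.5 and 183 CPM (2.14, 1.79 to 2.50), and was seen in 3.76% and 12.2% of monocytes thinned to 1000 UMIs. Isg15 gave 104 and 487 UMIs, 53.9 and 219 CPM (2.02, 1.72 to 2.34), and was seen in 3.29% and 11.2%. Both were thus counted in a larger share of monocytes at equal depth. Usp18 went from 11.4 to 42.8 CPM (1.91), Oasl1 from 6.74 to 27.9 (2.05), Isg20 from 14.5 to 56.3 (1.96), Oas3 from 15.0 to 45.1 (1.58) and Mx1 from 20.2 to 59.9 (1.57). Irf7 went from 61.2 to 128 CPM (1.06, 0.74 to 1.38) and Zbp1 from 65.3 to 154 (1.24, 0.94 to 1.54). Stat2, Ifih1, Ddx58 and Ifi204, which were inside the limit in macrophages, were past it here at 0.86, 0.86, 0.62 and 0.60.

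The monocyte members inside the limit included the one with the most UMIs. Ifitm3 stood at 2347 and 3143 CPM (0.42, 0.37 to 0.48), Slfn2 at 327 and 415 (0.35) and Trim30a at 130 and 169 (0.38). Irf9 differed by 0.02, Gbp3 by -0.02 and Parp14 by 0.30. Cxcl10 stood at 49.3 and 43.3 CPM (-0.19), where 77 of the 95 vehicle UMIs came from 1 cell. By role, the IFIT sum differed by 2.59, the viperin group by 2.07, the ISG15 system by 1.87 and the oligoadenylate synthetases by 1.32, while the membrane factors differed by 0.44 and the chemokines by -0.16. In the same gate immediate-early genes went from 4809 to 2898 CPM and Gpnmb+Spp1+ markers went from 3084 to 7219, C1q markers stood at 1202 and 1274 CPM, and median UMIs per cell were 7646 and 7396. Neutrophil markers stood at 27560 CPM with vehicle and 31049 with SB225002 in this gate, above its own Ly6c-high markers at 7036 and 6687. Dividing markers stood at 694 and 942 CPM. Whether any of these marker levels bears on the members was not tested.

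**Figure D4:**
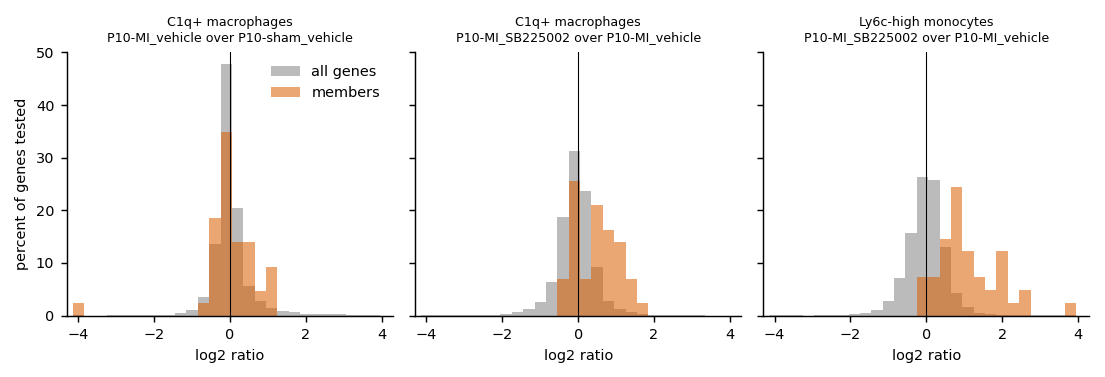
Log2 ratios of all genes tested (grey histogram, share of genes per bin) and of the members (coloured), in 3 panels for macrophages MI over sham, macrophages SB225002 over vehicle and monocytes SB225002 over vehicle. Member medians are 0.02, 0.52 and 0.86, beside -0.05, -0.06 and 0.01 for all genes, and the far left member of the first panel is Cxcl9.

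Whether a promoter held the response-element core did not sort the members by size. In macrophages the median ratio of SB225002 over vehicle was 0.62 for the 20 members with a match, of which 11 were past the limit, and 0.50 for the 15 without, of which 8 were. In monocytes the medians were 0.85 and 0.96, with 13 of 19 and 11 of 14 past the limit. Members in the 2 groups share cells and libraries, and no test was made of the difference.

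Macrophage subsets gated on their own markers each held a higher 44-member sum with SB225002 than with vehicle. Ifitm3 is part of these sums, and the SB225002 ratios without it are not given here. The 44-member ratio was 0.25 in Lyve1+Folr2+ resident-type macrophages (2681 and 3197 CPM), 0.48 in Gpnmb+Spp1+ cells (2032 and 2827 CPM) and 0.57 in MHCII+ cells (2507 and 3720 CPM). Gpnmb+Spp1+ cells numbered 76, 349 and 1351 in the 3 libraries, and Lyve1+Folr2+ cells 743, 792 and 584. Between sham and MI the Lyve1+Folr2+ cells differed by 0.18 and the Gpnmb+Spp1+ cells by 0.01, or by -0.27 without Ifitm3. MHCII+ cells numbered 25, 86 and 104. The part of subset makeup in the ratio over all macrophages was not tested.

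Dividing macrophages stood apart at a division score of at least 0.3, but less so at a lower limit. In the 1689, 2161 and 2754 cells that scored below 0.3 for division, 26 of 43 members were higher with SB225002, against 8.81% of 13844 genes, and 0 were lower, against 13.7%. Slfn1 (1.64), Isg15 (1.55), Slfn4 (1.46), Oas3 (1.40) and Isg20 (1.40) led, and the lowest were Gbp7 (-0.38), Slfn8 (-0.31) and Oas2 (-0.26). In the 382, 306 and 595 dividing cells only 9 of 41 members were higher, against 9.29% of 11047 genes, and 9 were lower, against 10.5%. The median member ratios were 0.60 and 0.02.

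Of the 26 members that were higher in the other macrophages, 9 were also higher in dividing cells and 6 were lower. Slfn4 (13 and 76 UMIs, 1.72), Slfn1 (1.46), Oas3 (1.24), Oas1g (1.11), Zbp1 (0.84) and Isg15 (0.72) were higher with SB225002, as in other macrophages. Rsad2 gave 49 UMIs with vehicle and 31 with SB225002, from 306 and 595 cells, a ratio of -1.49 (-2.18 to -0.81), where the other macrophages gave 191 and 543 (1.29, 1.05 to 1.53). Cxcl10 gave 78 and 51 UMIs (-1.44), Ifit1 differed by -1.33 and Cmpk2 by -1.29. These lower calls rested on a few cells: without the 1% of cells with the highest member share, which is 4 vehicle and 6 SB225002 cells, 13 of 40 members were higher and 1 lower, and the 43-member ratio was 0.16 instead of 0.06. Thinned to 1000 UMIs a cell it was -0.057. The difference between dividing and other macrophages was not tested.

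Fibroblasts in the sort showed another order, highest in the MI vehicle library. Their 43-member sum was 846 CPM in sham, 1243 in MI vehicle and 935 in MI SB225002, a log2 ratio of 0.56 for MI over sham and -0.41 for SB225002 over vehicle. For MI over sham 18 of 30 members were higher past the limit, against 13.7% of 9411 genes, and 2 were lower, against 20.9%, with 14 members too sparse. For SB225002 over vehicle 2 of 34 were higher, against 12.2% of 10118 genes, and 17 lower, against 15.5%. Median member ratios were 0.84 and -0.52. Ifitm3, at 1490 and 1470 CPM in sham and MI, differed by -0.02, and the 44-member ratios were 0.22 and -0.16.

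A handful of fibroblasts carried much of this. Cxcl10 gave 1 UMI in sham and 72 in MI vehicle (log2 ratio 4.87, 2.34 to 10.19), 66 of them in 1 cell, and 11 with SB225002. Ifit1 gave 0 and 56 UMIs, at least 7.57-fold higher against a floor of 3 counts in the sham library, with 27 of the 56 in 1 cell, and Rsad2 gave 0 and 28, at least 3.79-fold higher, with 15 in 1 cell. With these 2 members at their bounds the median was again 0.84. Isg15 stood at 21.5 and 56.9 CPM (1.41), with 27 of 85 UMIs in 1 cell, and Bst2 at 87.5 and 177 (1.01), while Slfn5 (256 and 168 CPM, -0.61) and Ifi35 (-0.72) were lower. Without 1 sham and 3 MI cells of highest member share, 9 of 24 members were higher and 2 lower, and the 43-member ratio was 0.14 with an interval of -0.01 to 0.29. Without 3 vehicle and 2 SB225002 cells, 3 of 27 were higher and 11 lower, and the ratio was -0.25.

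In the other gates the 44-member sum with SB225002 over vehicle differed by 0.42 (0.36 to 0.48) in neutrophils, from 3235 to 4325 CPM, and by 0.56 (0.37 to 0.74) in B cells, from 1463 to 2154. In endothelial cells it stood at 3714 and 3638 CPM, a ratio of -0.03 whose interval, -0.13 to 0.07, includes 0. Without Ifitm3 the 3 ratios were 0.38, 0.47 and 0.03. Differences between types were not tested.

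Within macrophages of each library most members were higher in the cells rich in the other members. Cells thinned to 1000 UMIs were ranked by the share of the other 43 members, and each member was compared between the top 5% of cells and the rest, as a description of cells of 1 library. The median ratio of its CPM was 3.74 in sham, 3.64 in MI vehicle and 4.47 in MI SB225002, and it exceeded 2 for 39, 41 and 41 of the 44 members. The same share over all genes was not taken, so the count has no background beside it, and some genes outside the 44 were raised too. In the SB225002 library, Cxcl10 was 45.5 times, Rsad2 37.4 times, Ifit3 25.8 times and Isg15 12.1 times as high in the top 164 cells as in the other 3105. Irf9 (1.47), Slfn2 (1.997) and Bst2 (2.20) differed least. Slfn4 was even between top and other cells in sham (0.97, 0.35 to 2.17) and 6.24 times as high in the SB225002 library.

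**Figure D5:**
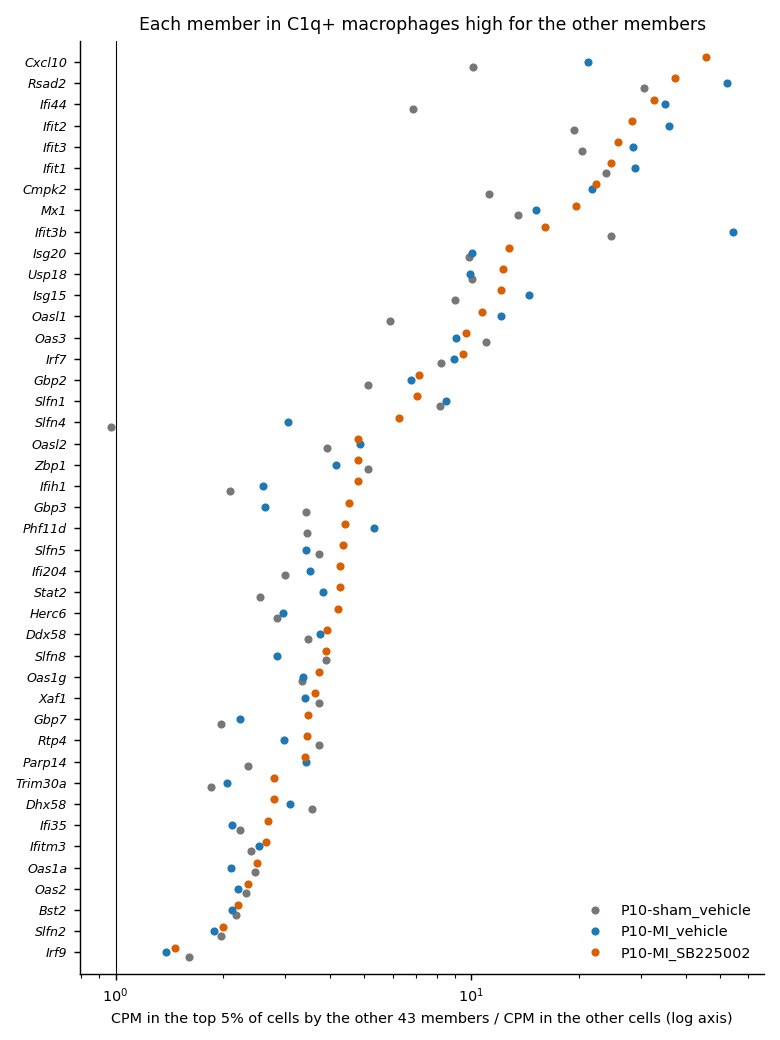
Ratio of each member's CPM between the 5% of C1q+ macrophages richest in the other 43 members and the remaining macrophages (log axis), with 1 point per library and Cxcl9 left out. Rsad2, Cxcl10 and the IFIT genes lie above 10 in all 3 libraries, Irf9 lies between 1.38 and 1.61, and Slfn4 in sham (0.97) is the point nearest to 1.

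The spread of member UMIs over cells was close in the 3 libraries at this depth. The top 5% of thinned macrophages held 21.1%, 21.9% and 21.97% of member UMIs. Macrophages with at least 3 UMIs of the 39 members other than the 5 with the most UMIs made up 10.3%, 8.53% and 13.5% of thinned cells (79.9%, 65.2% and 67.7% before thinning), and monocytes 13.6% with vehicle and 23.0% with SB225002 (81.2% and 79.5%). Before thinning, sham was the highest of the 3 macrophage libraries and SB225002 the lower of the 2 monocyte ones. Outside the 44, Ifi213, Ifi206 and Ifi208, relatives of the DNA sensor Ifi204, were among the 10 genes most raised in the top cells of every library, at 12.6, 12.6 and 13.1 times in the SB225002 library, and Helz2 and Mx2 were in 2 of the 3 lists.

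Like most genes, most of the pathway's receptors, kinases, feedback inhibitors and sensors stayed inside the limit. Of its 7 interferon genes, Ifnb1, Ifna1, Ifna2, Ifna4, Ifnl2 and Ifnl3 had 0 UMIs in every library, which allows up to 0.139, 0.115 and 0.0955 CPM over all cells, and Ifng gave 7, 4 and 2 UMIs. None of the 4 receptor genes passed the limit in macrophages or monocytes, with Ifnar1 at 92.8, 99.4 and 77.1 CPM in macrophages (-0.37 for SB225002 over vehicle). Of 11 kinases, signal carriers and feedback inhibitors, 0 passed it in macrophages for SB225002 over vehicle. For MI over sham 1 of them, Socs1, was higher, where 9.72% of all genes were. In monocytes Socs1 (11 and 26 UMIs, 1.04, -0.03 to 2.20) was past the limit with an interval that includes 0, and Socs3 (279 and 146 CPM, -0.94) was lower, both of them feedback inhibitors. Tlr7, the endosomal receptor for single-stranded RNA, was lower in macrophages (70.0 and 47.8 CPM, -0.55), and in monocytes it differed by -0.52 with an interval that includes 0 (-1.13 to 0.07). It was the only one past the limit of 9 sensing genes tested in macrophages and 7 in monocytes. For SB225002 over vehicle, 8.53% of all genes were higher and 13.4% lower in macrophages, and 12.2% and 14.2% in monocytes. Lists this short cannot set such counts apart from these shares.

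Further interferon targets, listed apart from the 44, were higher with SB225002 in 13 of 30 in monocytes, where 12.2% of all genes were, and in 4 of 34 in macrophages (Iigp1, Ifitm1, Tgtp2 and Mx2), a share near the 8.53% of all genes. None was lower in either. In monocytes they included Mx2 (1.20), Trim30d (1.17), Ifi47 (1.08), Igtp (1.03) and the MHC class I activator Nlrc5 (0.85). Between sham and MI, 3 of 33 were higher in macrophages, a share near the 9.72% of all genes, led by Ifitm1 (40.2 and 173 CPM, 2.10), and Mx2 was lower (-0.79). Ifi27l2a, which is no member, ran against the sum of the 44 in macrophages, at 3219, 2525 and 1794 CPM beside 2161, 2246 and 2888 for the sum (-0.35 and -0.49, inside the limit both times), while in monocytes it stood at 515 and 667 CPM (0.37). Of the antigen-presentation genes, the immunoproteasome subunits Psmb8 (0.57) and Psmb9 (0.52) were higher in macrophages with SB225002, 2 of 9. Psmb8 (0.57), the peptide transporter Tap1 (73 and 168 UMIs) and Cd274, which encodes PD-L1, were past the limit in monocytes, 3 of 8. The interval of Cd274 includes 0 (0.75, -0.16 to 1.72). Ciita and Cd274 were higher in macrophages for MI over sham, 2 of 9, where 9.72% of all genes were.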

How the data were processed

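Cells were isolated with the DG1000 droplet system, 1 library per group. The deposited values are UMI counts for every gene and barcode, without normalization and ahead of the authors' own cell filter. The submitters' processing notes name mm10 and Seurat 4.1.0. The counting tool and its use of strand are not given in the sources used here, and reads of near copies (Ifit3 and Ifit3b, Oas1a and Oas1g, the Schlafen genes) may have been split between them. Depth was 21656124, 26122174 and 31400723 UMIs in the cells kept from the sham, MI vehicle and MI SB225002 libraries.

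From these counts, 10550 cells passed the stated limits on UMIs, genes and mitochondrial share. Cells were gated into 11 types where the mean scaled level of a type's markers reached 0.25 and led the next type by 0.05. The remaining 685 cells, among them cells with markers of several types, went into no gate, which was also how doublets were treated, and no doublet caller was run. Macrophage subsets and dividing cells needed a score of 0.3. These thresholds were set after the number of cells per gate had been seen. Of the 10550 cells, 1080 lay within 0.05 of a limit of the cell-type gates. Of 7887 macrophages, 998 lay within 0.05 of the Lyve1+Folr2+ limit, 861 of the Gpnmb+Spp1+, 32 of the MHCII+ and 433 of the dividing limit. UMIs were summed per library and gate. The members, gene lists and comparisons were chosen with earlier results of these data known. Values in every library were given for members with at least 100 UMIs over the libraries, members of a cell type were named from 50 UMIs, the 5 highest and 5 lowest first, and other genes came from fixed pathway lists or the 10 genes most raised in cells rich in members. Alternatives were scaling by edgeR 4.0.16 and DESeq2 1.42.0 size factors, thinning, log-normalization, other limits and gates, and sums without the members with the most UMIs. Leaving out the 1% of cells with the highest member share, and other division scores, were added after seeing the data. Python 3.11.15, numpy 2.4.6, scipy 1.17.1, pandas 2.3.3, matplotlib 3.10.9 and R 4.3.3 were used, and the code was tested on simulated data. A gene of the pathway lists is not reported here.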

Additional observations from a re-analysis of the deposited data

Results flagged for a closer look

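The direction of SB225002 over vehicle was not the same in every cell type. The log2 ratio of the 44-member sum was 0.36 in C1q+ macrophages and 0.65 in Ly6c-high monocytes, but -0.16 in fibroblasts. Without Ifitm3 the values were 0.28, 0.89 and -0.41. Each group is 1 library, so the difference between cell types was not tested, and the fibroblast values rest on few cells, as given with the fibroblast results.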

How the results depend on the processing

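No paired analysis was possible because each group is 1 library, and leaving out a replicate could not be run for the same reason. Of 155 values compared under an alternative, 8 reversed. MI over sham had no settled direction. Over all cells (0.18) it was 0.24 with TMM and 0.23 with DESeq2 factors, and 0.099 after thinning to 1000 UMIs. It was -0.025 as a difference of log-normalized values (log2 scale) averaged over cells and members, and 0.27 with a mitochondrial limit of 5%. Further values were -0.039 without Ifitm3, 0.023 without the 5 members with the most UMIs and 0.034 as the median member ratio. At equal cell makeup it was 0.093, and without the 1% of cells richest in members 0.16. In macrophages (0.06) the first 8 of these gave 0.098, 0.094, -0.019, -0.034, 0.12, -0.074, -0.068 and 0.017, and leaving out the 1% of cells gave 0.034. SB225002 over vehicle stayed above 0 under every alternative run for all cells, macrophages and monocytes. Over all cells (0.37) it was 0.43 and 0.42 with TMM and DESeq2 factors, 0.35 thinned, 0.049 log-normalized, 0.35 without Ifitm3, 0.44 without the 5 and 0.56 as the median, and in macrophages (0.36) it was 0.43, 0.43, 0.32, 0.043, 0.28, 0.39 and 0.52. In monocytes (0.65) it was 0.47 thinned, 0.14 log-normalized, 0.89, 1.13 and 0.86 for the last 3, 0.58 with cells of several gates assigned and 0.60 with gates free of interferon-responsive markers. Without the richest 1% of cells the fibroblast ratio of MI over sham was -0.0046, and thinned dividing macrophages gave -0.057 without Ifitm3.

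Counts moved with the limit and with thinning. At a log2 limit of 1 the members higher in MI macrophages numbered 2 instead of 8 and those lower 1 instead of 2, those higher with SB225002 numbered 9 instead of 24 in macrophages and 19 instead of 31 in monocytes. Thinned, MI over sham had 3 higher and 5 lower, monocytes had 13 higher, and SB225002 over vehicle had 1 lower in macrophages and 1 in monocytes. Without the richest 1% of cells, 4 were lower in MI macrophages, and with a minimum of 100 UMIs, 1. The share of all genes past the limit was not taken under these settings, so the counts have no background. The top 5% of cells held 18.0% (sham) and 21.1% (SB225002) of member UMIs when thinned to 2000 UMIs, the top 1% held 7.60%, 8.38% and 7.64%, and without Ifitm3 the top 5% held 24.3% (MI vehicle) and 24.5% (SB225002). Depth limits the rarer members, many of which had under 100 UMIs in monocytes.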

Other observations

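Gates under 50 cells in the libraries compared gave levels but no ratio. Ace+ Ly6c-low monocytes, which patrol vessel walls, held 3228 CPM of the 44 members in 12 sham cells, 3296 CPM in 43 MI vehicle cells and 4627 CPM in 42 MI SB225002 cells, and without Ifitm3 963, 1206 and 2330 CPM. Plasmacytoid dendritic cells, known as the main producers of type I interferon, numbered 8 with vehicle and 11 with SB225002, at 1879 and 3865 CPM. Dendritic-like cells stood at 2558 CPM in 20 vehicle cells and 3708 CPM in 48 SB225002 cells. T and NK cells (25 and 8) stood at 2577 and 2152 CPM and mural cells (5 and 16) at 1717 and 1493.

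In the MI vehicle library the genes most raised in the macrophages richest in members included some outside the pathway lists, with Car4 at 133 times (91 and 12 UMIs), Slpi at 8.01 times and Saa3 at 7.20 times the level of the other macrophages. In the SB225002 library Ifit1bl1 (51.9 times), Ifi205 (32.0) and Ms4a4c (11.5) were such genes. The feedback inhibitor Socs1 (16.8), which is in the lists, was raised there as well.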
